A study of Homo sapiens with 6 samples.

Results

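The 49 genes described here carry a cell through mitosis. They encode the kinases and cyclins of mitotic entry, the spindle checkpoint, the kinetochore, the chromosomal passenger complex, spindle motors, cytokinesis proteins, condensin and other proteins of chromosome structure, and the machinery of anaphase. They were chosen by name, as genes of textbook function, and looked up by gene identifier in the deposited expression table, where 49 of 49 were found among 12486 listed genes. RNA-seq had been performed on K562, a human chronic myeloid leukemia cell line driven by the Bcr-Abl fusion kinase. Cells stably expressed either a control shRNA (sh-luc) or an shRNA against the long noncoding RNA named lncRNA-up91 in the labels and lncRNA-IUR1 in the study (sh-IUR1), with 3 libraries per group from independent groups of cells per the study's methods. All 6 libraries come from 1 cell line and carry an shRNA, no drug treatment is stated, and 1 shRNA stands for the knockdown. One library of each group has no number and the others are r1 and r2. The knocked-down RNA itself was not analysed here, so the labels were not checked at the level of their target.

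Mitosis begins when cyclin B and its kinase CDK1 become active, after which chromosomes condense and microtubules of the spindle attach to kinetochores, the protein assemblies built on centromeres. The spindle checkpoint holds the cell until every kinetochore is attached. The anaphase-promoting complex then tags securin and cyclin B for destruction, chromatids separate and the cell divides. Most genes of this set are transcribed late in the cell cycle, through promoters that carry a cell cycle genes homology region (CHR), bound by the MuvB complexes, and CCAAT boxes bound by NF-Y. Bulk RNA from a growing culture averages over cells in every phase, so a smaller share of cells in mitosis and less RNA per mitotic cell cannot be told apart in these data.

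No mitosis or kinetochore gene differed between sh-IUR1 and sh-luc cells after adjustment for all genes tested. Values are FPKM (fragments scaled to transcript length and to library size), compared on the log2(FPKM + 1) scale with limma in 12276 genes whose mean reached 0.1 FPKM. All 49 genes passed that filter on low values. Of the 49, 34 were lower in sh-IUR1 in their mean and 15 were higher, with a median log2 fold change of -0.043 and a range from -0.25 to 0.18. At an adjusted p under 0.05 the count was 0 of 49, against a background of 0% of all genes tested, and adjusted p-values ran from 0.930 to 0.998. At an unadjusted p under 0.05 the set held 1 lower gene, CCNB1, where 0.994% of all genes were lower, and 0 higher genes, where 1.65% of all genes were higher. The sh-IUR1 and sh-luc values did not overlap for 2 of the 49 genes, SPC25 and PRC1, both lower, where 3.03% of all genes were lower without overlap. None of the 49 was higher without overlap, where 4.04% of all genes were. The 34 lower genes make up 69.4% of the set, while 42.0% of all genes were lower, and the median over all genes was 0.019. With median-ratio scaling or quantile normalization 39 of the 49 genes were lower, with 49.3% and 51.1% of all genes. The lean of the set to lower values varied with the library left out. Without the unnumbered sh-luc library 23 of 49 (46.9%) were lower with a median of 0.0020, where 47.3% of all genes were lower. Without sh-IUR1 r1 27 of 49 (55.1%) were lower with a median of -0.0062, where 40.7% of all genes were lower.

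Facts of the series bear on these values. FPKM of the listed genes summed to between 579820 and 606240 per library, and pairs of libraries correlated across genes with Pearson's r from 0.9903 to 0.9984. The sums say nothing of depth. Of 173 low values of single-exon genes, 37.0% matched a whole number of fragments within the rounding of FPKM (0.005 either way) at the best trial depth, where chance gives 17.6%. Most values did not match, so the depth behind each value is unknown. With 3 libraries against 3, an exact permutation test cannot give a two-sided p under 0.1, and no such test is given. The erythroid markers that define K562 were present: 10 of 10 were measured, HBG1 at a mean of 1271 FPKM and GATA1 at 194 FPKM. Among markers of other blood cells, PTPRC was at a mean of 0.290, CD3D at 4.11 and LYZ at 114 FPKM, and their part in the results was not tested.

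The promoters of the set share sequence features that its choice did not use. RefSeq (GRCh38.p14) gave promoters for 41 of the 49 genes, and the 250 bases before each start were searched on both strands. AURKA, FOXM1, BUB3, TTK, KNL1, BIRC5, TPX2 and UBE2C have no entry in the table. A CHR (TTTGAA or TTCGAA) was found in 25 of 41 genes (61.0%), against 17.2% of the 27305 genes in the table and 13.6% of the genes tested. CCAAT was found in 32 (78.0%), against 37.0% and 41.7%. Both occurred in the same window in 21 (51.2%), against 6.24% of the genes in the table. Counted in any windows of a gene, both occurred in 21 (51.2%), against 7.20% of the genes tested. An E2F site (TTTGGCGC, TTTGCCGC, TTTCGCGC or TTTCCCGC) was found in 3 genes (7.32%), which were CDK1, CENPA and NUSAP1, against 3.40% and 5.77%. A gene with several starts counts once if any of its windows holds the letters. Counted by window rather than by gene, the CHR was in 27 of 53 windows (50.9%) of the set and 14.3% of 35116 windows in all.

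DNA replication genes, which are expressed in an earlier wave of the cell cycle, were searched for comparison. Of 32 in the table, 2 (6.25%) held a CHR, 20 (62.5%) held CCAAT and 13 (40.6%) held an E2F site. Of 28 other mitotic kinases, phosphatases and spindle genes, 14 held a CHR and 3 (10.7%) an E2F site. The share with a CHR was 5 of 28 (17.9%) in other centromere and kinetochore genes, 4 of 17 (23.5%) in the anaphase-promoting complex and 3 of 11 (27.3%) in other condensin and cohesin subunits, of which 5 (45.5%) held an E2F site. Of 12 regulators of DREAM, MuvB and NF-Y, 4 (33.3%) held a CHR. A match is a description of letters and no evidence of binding. Bases after the start and variant letters were not searched, so a gene without a match may still hold the element.

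Within the set, the CHR was in 5 of 7 mitotic entry genes, 7 of 10 genes of spindle motors and microtubule-binding proteins, 4 of 6 genes of chromosome structure and 2 of 7 kinetochore genes. CENPE, NDC80, NUF2, KIF2C and SMC2 held neither CHR nor CCAAT in these windows. The promoters of the 6 genes with the highest mean FPKM among those holding both motifs are printed because they show how the elements lie. Each line gives the 250 bases before the start, 5′ to 3′ on the strand of the gene, with CHR and CCAAT in capitals.
CDC20, plus strand, chr1:43358731-43358980: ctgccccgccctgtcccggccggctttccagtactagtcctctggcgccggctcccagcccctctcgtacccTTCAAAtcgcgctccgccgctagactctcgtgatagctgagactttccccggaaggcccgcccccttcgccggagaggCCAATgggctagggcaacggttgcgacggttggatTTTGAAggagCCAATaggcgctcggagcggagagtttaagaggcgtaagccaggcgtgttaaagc
PLK1, plus strand, chr16:23678639-23678888: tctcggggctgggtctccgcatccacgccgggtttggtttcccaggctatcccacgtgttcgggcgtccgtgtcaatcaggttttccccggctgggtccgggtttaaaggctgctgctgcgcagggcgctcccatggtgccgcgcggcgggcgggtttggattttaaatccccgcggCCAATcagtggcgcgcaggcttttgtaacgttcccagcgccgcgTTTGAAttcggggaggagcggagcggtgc
CCNB2, plus strand, chr15:59104896-59105145: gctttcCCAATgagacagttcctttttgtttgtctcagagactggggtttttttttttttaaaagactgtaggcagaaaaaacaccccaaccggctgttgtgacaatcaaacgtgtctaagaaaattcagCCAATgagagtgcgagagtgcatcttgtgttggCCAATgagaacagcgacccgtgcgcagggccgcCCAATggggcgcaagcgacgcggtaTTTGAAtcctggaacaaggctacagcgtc
PRC1, minus strand, chr15:90994536-90994785: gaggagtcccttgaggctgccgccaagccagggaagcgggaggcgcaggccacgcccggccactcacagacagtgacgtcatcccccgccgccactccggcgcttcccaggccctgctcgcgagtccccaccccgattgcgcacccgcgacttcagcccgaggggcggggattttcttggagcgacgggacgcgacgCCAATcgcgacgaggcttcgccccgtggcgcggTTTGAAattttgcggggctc
CDCA8, plus strand, chr1:37692266-37692515: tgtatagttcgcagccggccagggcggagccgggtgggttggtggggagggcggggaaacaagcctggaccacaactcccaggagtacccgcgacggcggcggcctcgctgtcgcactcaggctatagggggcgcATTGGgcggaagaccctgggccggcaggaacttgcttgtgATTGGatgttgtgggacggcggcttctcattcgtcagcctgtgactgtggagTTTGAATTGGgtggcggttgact
CDK1, plus strand, chr10:60778081-60778330: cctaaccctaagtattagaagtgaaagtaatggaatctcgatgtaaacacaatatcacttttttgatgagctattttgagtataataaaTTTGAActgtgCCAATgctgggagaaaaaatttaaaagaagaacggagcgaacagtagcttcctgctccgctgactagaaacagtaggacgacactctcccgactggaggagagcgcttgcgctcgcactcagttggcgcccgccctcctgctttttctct
In PLK1 and CCNB2 the CHR begins 29 bases before the start, in PRC1 20 and in CDCA8 23 bases before it. In CDC20 the nearer CHR begins 65 bases before the start, and in CDK1 the CHR lies 161 bases before it. CDK1 has 2 windows, and its E2F site lies in the one not printed. Motifs on the opposite strand read as their reverse complement, so the upstream CHR of CDC20 appears as TTCAAA and the 3 CCAAT boxes of CDCA8 appear as ATTGG. In CDCA8 the last of these shares a base with the CHR. CCNB2 holds 4 CCAAT boxes and PRC1 holds 1. In the comparison of groups, the median log2 fold change was -0.038 in the 25 genes with a CHR, 17 of them lower. In the 16 genes with no CHR found in these windows it was -0.068, 12 of them lower. For CCAAT it was -0.083 in 32 genes with it (24 lower) and -0.0029 in 9 without it (5 lower). For the E2F site it was -0.13 in 3 genes with it (3 lower) and -0.050 in 38 without it (26 lower). The differences between these groups of genes were not tested.

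FPKM is scaled to transcript length, so levels can be set side by side between genes. The mean over the 6 libraries ran from 0.495 FPKM (UBE2C) to 173 FPKM (PTTG1), with a median of 24.8 FPKM, against 10.6 FPKM over all genes tested. PTTG1, CDC20 and TPX2 were at 100 FPKM or above, 34 genes lay between 10 and 100 FPKM and 12 lay below 10 FPKM. The lowest were the large proteins ASPM (2.29 FPKM), CENPE (2.29 FPKM) and KNL1 (2.79 FPKM), after UBE2C. The highest library exceeded the lowest by a median of 1.39-fold over the set, from 1.05-fold in PRC1 to 2.64-fold in UBE2C. Over the 12195 genes tested that were above 0 in each library this median was 1.26-fold.

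**Figure D1:**
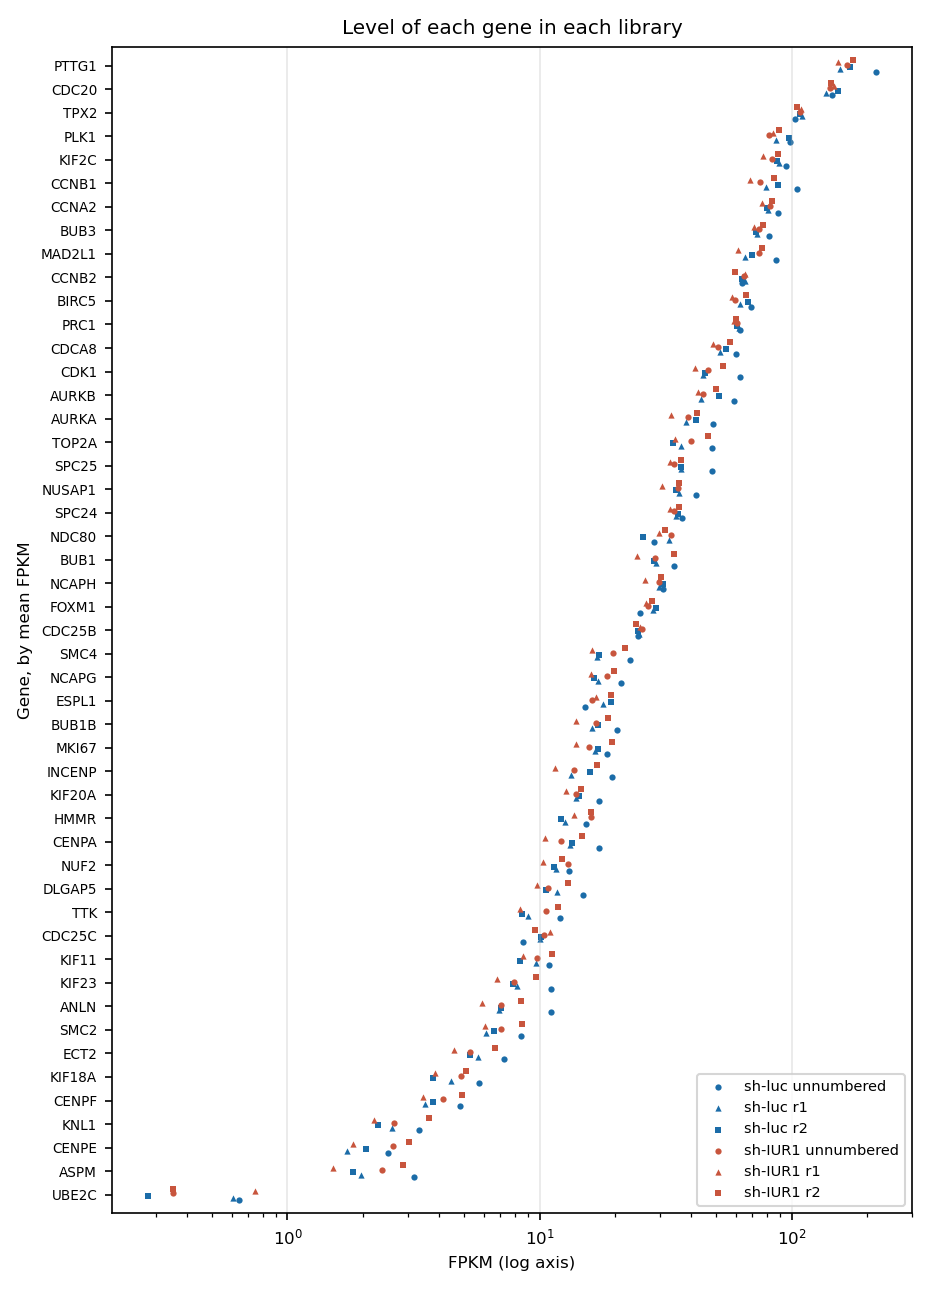
FPKM of each of the 49 genes (rows, ordered by mean) in each library on a log axis, with sh-luc in blue, sh-IUR1 in red and a symbol for each library. The unnumbered sh-luc library is the highest point for 33 genes and sh-IUR1 r1 the lowest for 34, while levels span 0.28 (UBE2C) to 216 FPKM (PTTG1).

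Among the 9 genes of mitotic entry, 7 were lower in sh-IUR1 and 2 were higher, with 0 called and a median log2 fold change of -0.043. CCNB1 encodes cyclin B1, the subunit that activates CDK1, and its gene spans positions 69167150 to 69178245 of chromosome 5 (GRCh38). In the sh-luc libraries CCNB1 was at 104.75 (unnumbered), 79.18 (r1) and 88.63 (r2) FPKM, and in the sh-IUR1 libraries at 74.73, 68.67 and 84.95 FPKM. The highest sh-luc value stood apart and the groups overlapped, since sh-IUR1 r2 lay above sh-luc r1. The means were 90.8 ± 12.9 and 76.1 ± 8.23 FPKM (SD, n = 3), a log2 fold change of -0.25 with a standard error of 0.11. In limma the p-value was 0.0419 before adjustment and 0.930 after it. Without the unnumbered sh-luc library the log2 fold change of CCNB1 was -0.14. PLK1 encodes Polo-like kinase, which acts from mitotic entry to cytokinesis, and its gene spans positions 23678889 to 23690367 of chromosome 16. PLK1 was at 98.32, 87.10 and 97.89 FPKM in sh-luc and at 81.08, 84.11 and 89.49 FPKM in sh-IUR1. Only sh-IUR1 r2 reached into the range of the control libraries, above sh-luc r1. The log2 fold change of PLK1 was -0.15 (standard error 0.068), with an adjusted p of 0.930 from limma.

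CDK1, the central kinase of mitosis, was at 62.52, 44.39 and 45.18 FPKM in sh-luc and at 46.42, 41.57 and 53.49 FPKM in sh-IUR1. A single sh-luc library set the higher control mean, and without it the log2 fold change of CDK1 turned from -0.092 to 0.066. CDC25C, the phosphatase that removes the inhibitory marks from CDK1, was at 8.57, 10.00 and 10.15 FPKM in sh-luc and at 10.41, 11.03 and 9.56 FPKM in sh-IUR1, a log2 fold change of 0.10. CDC25C ran opposite to CCNB1, with its lowest value in the unnumbered sh-luc library. FOXM1, a transcription factor of mitotic genes, was at 25.16, 28.11 and 28.93 FPKM in sh-luc and at 26.90, 26.55 and 28.00 FPKM in sh-IUR1, a log2 fold change of -0.011 that turned to 0.028 without sh-luc r2. The sh-IUR1 values of FOXM1 lay inside the control range. The other members of this role were CCNA2 (81.8 FPKM), the cyclin of S phase and mitotic entry, CCNB2 (63.8 FPKM), a second B-type cyclin, AURKA (40.5 FPKM), the kinase of the spindle poles, and CDC25B (24.8 FPKM), a phosphatase of CDK1. CCNB2 and CDC25B varied little, by 1.10-fold and 1.06-fold between the lowest and highest library.

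In the spindle checkpoint, 4 of 5 genes were lower in sh-IUR1 and 1 was higher, with 0 called and a median log2 fold change of -0.059. All 5 were highest in the unnumbered sh-luc library and lowest in sh-IUR1 r1. BUB3, which recruits checkpoint proteins to kinetochores, was at 81.07, 73.13 and 72.52 FPKM in sh-luc and at 74.28, 71.10 and 77.00 FPKM in sh-IUR1. MAD2L1 encodes MAD2, the protein that inhibits CDC20. It was at 86.57, 65.57 and 69.52 FPKM in sh-luc and at 74.56, 61.25 and 76.38 FPKM in sh-IUR1. TTK encodes MPS1, the kinase that starts the checkpoint signal. TTK was at 12.03, 8.98 and 8.56 FPKM in sh-luc and at 10.59, 8.34 and 11.86 FPKM in sh-IUR1. The groups overlapped for each of these genes. Log2 fold changes were -0.026 in BUB3, -0.059 in MAD2L1 and 0.054 in TTK, and without the unnumbered sh-luc library they were 0.024, 0.059 and 0.19. BUB1 (29.8 FPKM) and BUB1B (17.1 FPKM), the checkpoint kinase and its relative BUBR1, had the same order of extremes.

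Of the 8 kinetochore genes, 4 were lower and 4 higher, with 0 called and a median log2 fold change of -0.00063. CENPA, the histone H3 variant that marks centromeres, was at 17.23, 13.18 and 13.44 FPKM in sh-luc and at 12.17, 10.48 and 14.69 FPKM in sh-IUR1. Its log2 fold change was -0.22 with a standard error of 0.13 (unadjusted p = 0.123, adjusted p = 0.930, limma), and sh-IUR1 r2 exceeded 2 of the 3 control libraries. CENPE, a kinesin that moves chromosomes to the spindle equator, was at 2.51, 1.72 and 2.04 FPKM in sh-luc and at 2.63, 1.82 and 3.03 FPKM in sh-IUR1. At these low levels the log2 fold change of 0.17 understates the ratio of the means, which was 1.19. CENPF (4.10 FPKM) and KNL1 (2.79 FPKM), a corona protein and the scaffold that binds the checkpoint proteins, had their highest values in sh-IUR1 r2.

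The 4 subunits of the NDC80 complex, which holds the microtubule end, had values in both directions. SPC25 (chromosome 2, 168861521 to 168890430) was at 48.45, 36.58 and 36.51 FPKM in sh-luc and at 34.04, 32.94 and 36.38 FPKM in sh-IUR1. Every sh-IUR1 value of SPC25 was below every control value, but the nearest values of the groups, 36.38 and 36.51 FPKM, nearly touched. Its log2 fold change was -0.22 with a standard error of 0.10 (unadjusted p = 0.0657, adjusted p = 0.930, limma), and -0.084 without the unnumbered sh-luc library. Its partner SPC24 was at 36.62, 34.95 and 35.58 FPKM in sh-luc and at 34.03, 33.07 and 35.79 FPKM in sh-IUR1, a log2 fold change of -0.057. NDC80, the subunit that touches the microtubule, was at 28.37, 32.51 and 25.78 FPKM in sh-luc and at 33.24, 29.70 and 31.43 FPKM in sh-IUR1. Its log2 fold change was 0.12, with overlapping groups. NUF2, the partner of NDC80, had a mean of 12.0 FPKM. None of these subunits passed the adjusted threshold, and the differences between subunits were not tested.

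The chromosomal passenger complex corrects wrong attachments and guides cytokinesis. All 4 of its genes were lower in sh-IUR1, with 0 called and a median log2 fold change of -0.13. All 4 were also highest in the unnumbered sh-luc library and lowest in sh-IUR1 r1. BIRC5, which encodes survivin, was at 69.03, 62.57 and 67.07 FPKM in sh-luc and at 59.48, 58.07 and 66.13 FPKM in sh-IUR1, a log2 fold change of -0.11. CDCA8, which encodes borealin and whose promoter is printed above, was at 60.45, 51.80 and 55.19 FPKM in sh-luc and at 50.88, 49.01 and 56.89 FPKM in sh-IUR1, a log2 fold change of -0.093. In both genes sh-IUR1 r2 lay within the control range. The kinase AURKB and the scaffold INCENP had means of 48.6 and 15.1 FPKM. The median difference of the 4 genes from their means over the 6 libraries, on the log2(FPKM + 1) scale, was 0.22 in the unnumbered sh-luc library and -0.15 in sh-IUR1 r1.

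Of the 11 genes of spindle motors and microtubule-binding proteins, 8 were lower and 3 higher, with 0 called and a median log2 fold change of -0.038. KIF2C encodes MCAK, a kinesin that takes microtubules apart at their ends. KIF2C was at 95.23, 88.93 and 87.79 FPKM in sh-luc and at 83.50, 77.28 and 88.35 FPKM in sh-IUR1. One sh-IUR1 value exceeded the lowest control value, and the log2 fold change was -0.13 (standard error 0.066, adjusted p = 0.930 from limma). TPX2, which activates AURKA on the spindle, was at 102.94, 110.09 and 108.14 FPKM in sh-luc and at 107.75, 109.23 and 105.36 FPKM in sh-IUR1. Its 6 values spanned 1.07-fold, and its log2 fold change of 0.0056 turned to -0.015 with median-ratio scaling. HMMR, which encodes a protein of the spindle poles, was at 15.30, 12.63 and 12.18 FPKM in sh-luc and at 15.99, 13.65 and 16.01 FPKM in sh-IUR1. It had the highest log2 fold change of the 49 genes, a value of 0.18 with a standard error of 0.10 (unadjusted p = 0.106, adjusted p = 0.930, limma), and sh-IUR1 r1 overlapped the controls. Without the unnumbered sh-luc library the value was 0.27.

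PRC1 encodes the protein that bundles antiparallel microtubules of the central spindle, and is described because its groups did not overlap, after its values were seen. PRC1 was at 62.47, 62.07 and 60.85 FPKM in sh-luc and at 60.64, 59.33 and 60.47 FPKM in sh-IUR1. The separation was narrow, from 60.64 to 60.85 FPKM, and the log2 fold change was -0.038 with an adjusted p of 0.940 from limma. The other kinesins were KIF11 (9.77 FPKM), which pushes the spindle poles apart, KIF18A (4.65 FPKM), which dampens chromosome movement, and KIF20A (14.5 FPKM) and KIF23 (8.58 FPKM) of the central spindle. NUSAP1 (35.7 FPKM), DLGAP5 (11.8 FPKM) and ASPM (2.29 FPKM) bind spindle microtubules. Both cytokinesis genes were lower in sh-IUR1 and neither was called. ANLN, the actin-binding scaffold of the contractile ring, was at 11.15, 6.91 and 7.06 FPKM in sh-luc and at 7.05, 5.90 and 8.42 FPKM in sh-IUR1. Its log2 fold change of -0.19 turned to 0.013 without the unnumbered sh-luc library. ECT2, which starts the assembly of the contractile ring, was at 7.25, 5.71 and 5.29 FPKM in sh-luc and at 5.29, 4.56 and 6.66 FPKM in sh-IUR1, a log2 fold change of -0.13 that was -0.011 without that library.

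Of the 6 genes of chromosome structure, 3 were lower and 3 higher, with 0 called and a median log2 fold change of 0.0055. TOP2A encodes topoisomerase II alpha, which untangles sister chromatids. It was at 48.53, 36.47 and 33.86 FPKM in sh-luc and at 39.97, 34.45 and 46.62 FPKM in sh-IUR1. MKI67 encodes Ki-67, the coat of mitotic chromosomes that is used as a marker of proliferating cells. MKI67 was at 18.46, 16.66 and 17.07 FPKM in sh-luc and at 15.71, 13.96 and 19.46 FPKM in sh-IUR1, so that the sh-IUR1 libraries held both its lowest and its highest value. NCAPH, a condensin I subunit, was at 31.01, 29.89 and 30.97 FPKM in sh-luc and at 29.77, 26.16 and 30.46 FPKM in sh-IUR1. Log2 fold changes were 0.032 in TOP2A, -0.093 in MKI67 and -0.089 in NCAPH. Without sh-IUR1 r1 the value of MKI67 was 0.0086, and without sh-IUR1 r2 that of TOP2A was -0.075. The other condensin subunits were NCAPG (18.2 FPKM), SMC4 (19.1 FPKM) and SMC2 (7.13 FPKM).

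Of the 4 anaphase genes, 2 were lower and 2 higher, with 0 called and a median log2 fold change of -0.015. CDC20, the activator of the anaphase-promoting complex, was at 144.55, 136.97 and 152.80 FPKM in sh-luc and at 142.26, 147.94 and 143.89 FPKM in sh-IUR1. The means were 144.8 and 144.7 FPKM, and the log2 fold change of 0.00047 had a standard error of 0.058. PTTG1 encodes securin, the inhibitor of separase. PTTG1 was at 215.64, 156.32 and 171.15 FPKM in sh-luc and at 166.57, 153.46 and 174.91 FPKM in sh-IUR1, a log2 fold change of -0.12 that turned to 0.010 without the unnumbered sh-luc library. PTTG1 has near-identical copies in the genome, so its level is uncertain. Separase itself, ESPL1, had a mean of 17.4 FPKM. UBE2C, the ubiquitin-conjugating enzyme of the anaphase-promoting complex, was listed at 0.64, 0.61 and 0.28 FPKM in sh-luc and at 0.35, 0.74 and 0.35 FPKM in sh-IUR1, far below the other genes of the set. Its 2.64-fold spread between libraries rests on values under 1 FPKM. The level of UBE2C is given as deposited, could not be checked against its reads here, and is uncertain.

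**Figure D2:**
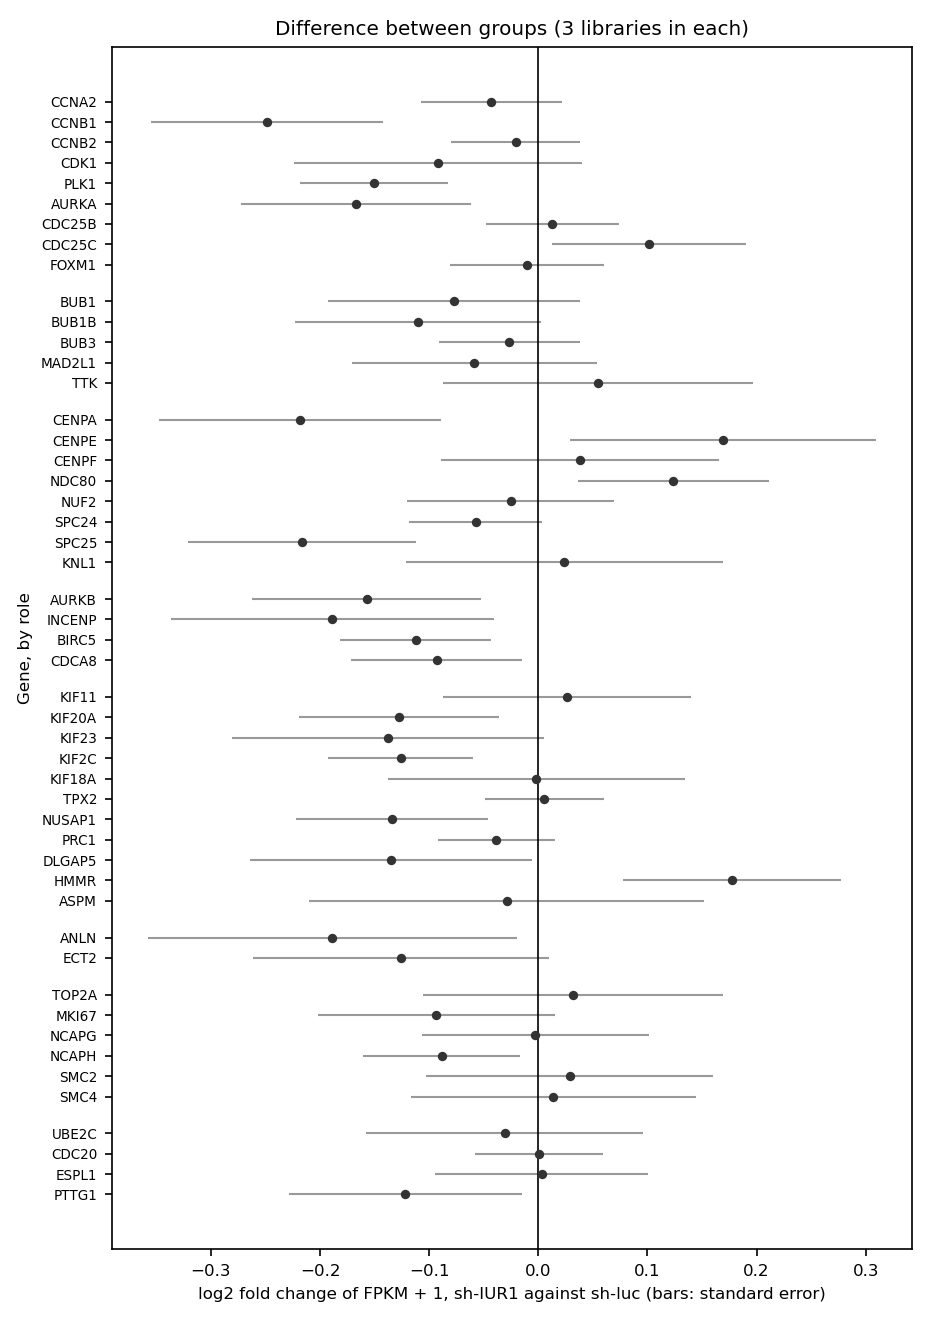
Log2 fold change of FPKM + 1, sh-IUR1 against sh-luc, for the 49 genes in order of role, with bars of 1 standard error from limma and 3 libraries per group. Points run from -0.25 (CCNB1) to 0.18 (HMMR), and 0 of the 49 genes passed the adjusted threshold.

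Libraries of one group also differed from each other. For each gene and library the deviation is log2(FPKM + 1) minus the mean over the 6 libraries. Of the 49 genes, 33 (67.3%) were highest in the unnumbered sh-luc library, against 24.1% of all genes tested, and 34 (69.4%) were lowest in sh-IUR1 r1, against 22.3% of all genes. For 30 genes both held. The median deviation of the set was 0.20, -0.035 and -0.032 in the control libraries and -0.024, -0.18 and 0.076 in the sh-IUR1 libraries. Its mean by group was 0.045 ± 0.14 in sh-luc and -0.041 ± 0.13 in sh-IUR1 (SD, n = 3). The difference of -0.086 (sh-IUR1 minus sh-luc) was smaller in size than the range within sh-luc (0.24) and within sh-IUR1 (0.25). In 45 of the 49 genes the range of FPKM among the sh-luc libraries exceeded the difference of the group means. A range of 3 single values tends to exceed a difference between means of 3, so these comparisons do not measure a group effect. The share over all genes was not computed. Library sh-IUR1 r2 was above the gene mean for 41 of 49 genes, as was the unnumbered sh-luc library, and 38 genes were above it in both.

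**Figure D3:**
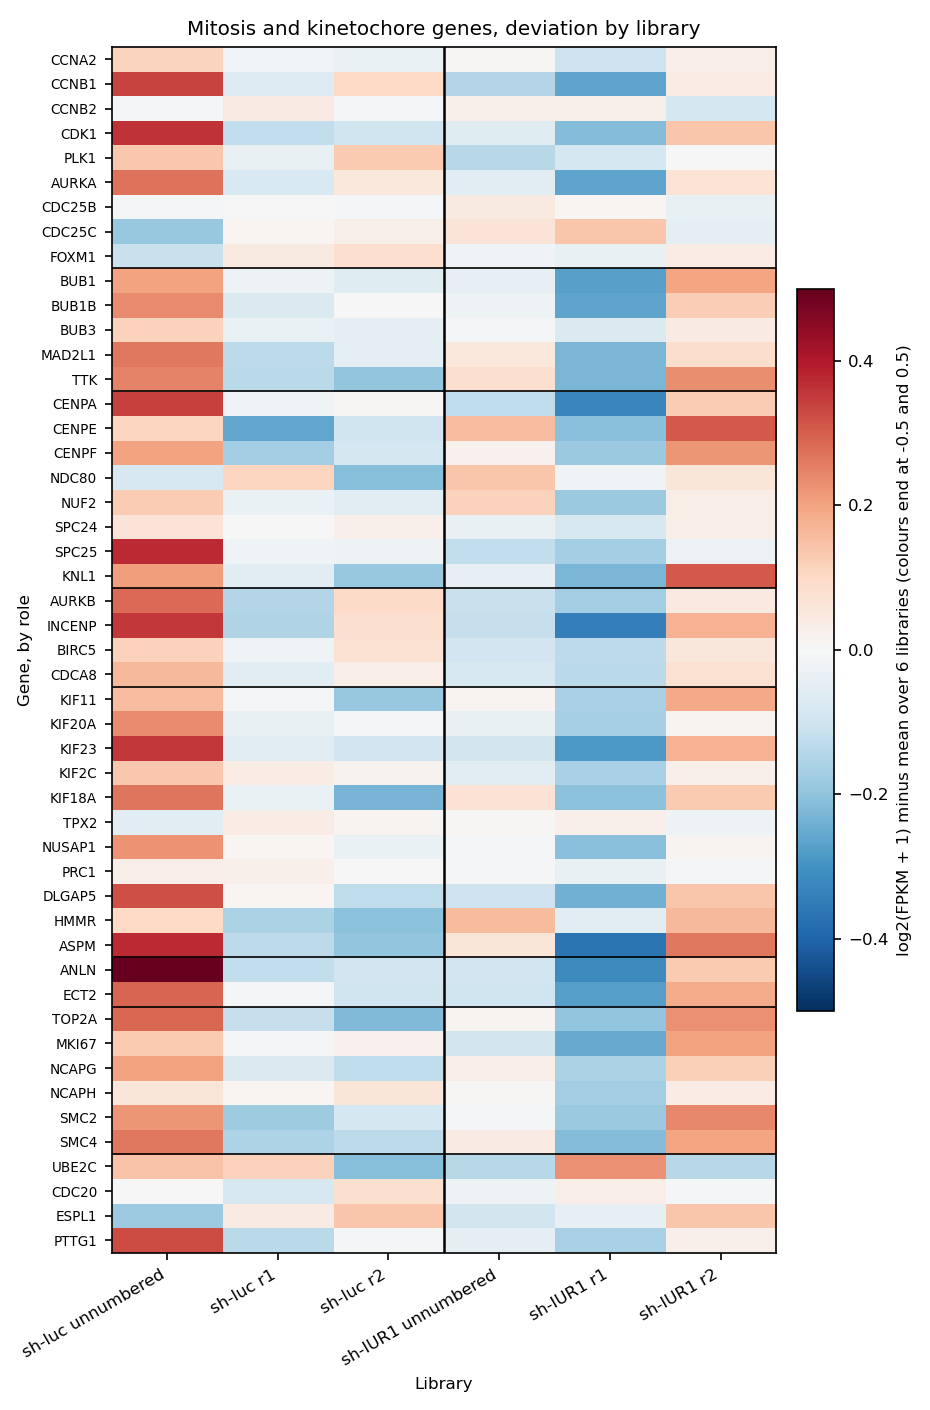
Deviation of log2(FPKM + 1) from the mean over the 6 libraries (colour) for the 49 genes (rows, by role) in the 6 libraries (columns, with sh-luc left of the line). Columns for the unnumbered sh-luc library and sh-IUR1 r2 are mostly red (median 0.20 and 0.076) and the column for sh-IUR1 r1 is mostly blue (median -0.18).

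In the authors' clustering of all genes into 9 groups, which was made from the same FPKM values and is therefore a description, 40 of the 49 genes (81.6%) fell in clusters 2, 3 and 4, which hold 33.3% of all genes tested. The 9 genes in other clusters were CCNB2, CDC25B, CDC25C, FOXM1, TPX2, CDC20, ESPL1, NDC80 and UBE2C. Cluster 2 held 16 members, among them ASPM, CENPE, CENPF, KNL1, TOP2A and MKI67, with deviations of 0.21 in the unnumbered sh-luc library and 0.20 in sh-IUR1 r2. Cluster 3 held 15, among them CDK1, CENPA, SPC25, ANLN and PTTG1, with deviations of 0.27 and 0.070 in these libraries. Cluster 4 held 9, among them CCNB1, PLK1 and all 4 genes of the chromosomal passenger complex, with deviations of 0.14 and 0.038.

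Of 38 DNA replication genes, which peak before mitosis, 11 (28.9%) were highest in the unnumbered sh-luc library, against 24.1% of all genes tested. In that library 18 (47.4%) were lowest, against 38.4% of all genes. In sh-IUR1 r1, 16 of the 38 (42.1%) were lowest and 4 (10.5%) highest, against 22.3% and 25.9% of all genes. The 38 genes had median deviations of -0.018, 0.019 and 0.043 in the control libraries and of 0.0051, -0.028 and 0.0047 in the sh-IUR1 libraries, and 17 of the 38 (44.7%) fell in clusters 2, 3 and 4. The difference between both sets was not tested. Integrated stress response genes, the transcription factor ATF4 and its targets, moved the other way between the same libraries. Of these, 23 of 23 were lowest in the unnumbered sh-luc library, against 38.4% of all genes. In sh-IUR1 r1 18 of 23 (78.3%) were highest, against 25.9% of all genes. Their median deviation was -0.80, 0.21 and 0.051 in the control libraries, and 0.24, 0.37 and -0.086 in those of sh-IUR1. The erythroid markers had median deviations of 0.17, -0.099 and 0.049 in the control libraries and of -0.073, -0.12 and 0.037 in the sh-IUR1 libraries, the same order of extremes as the mitosis genes. The part of either in the levels of the mitosis genes was not tested.

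**Figure D4:**
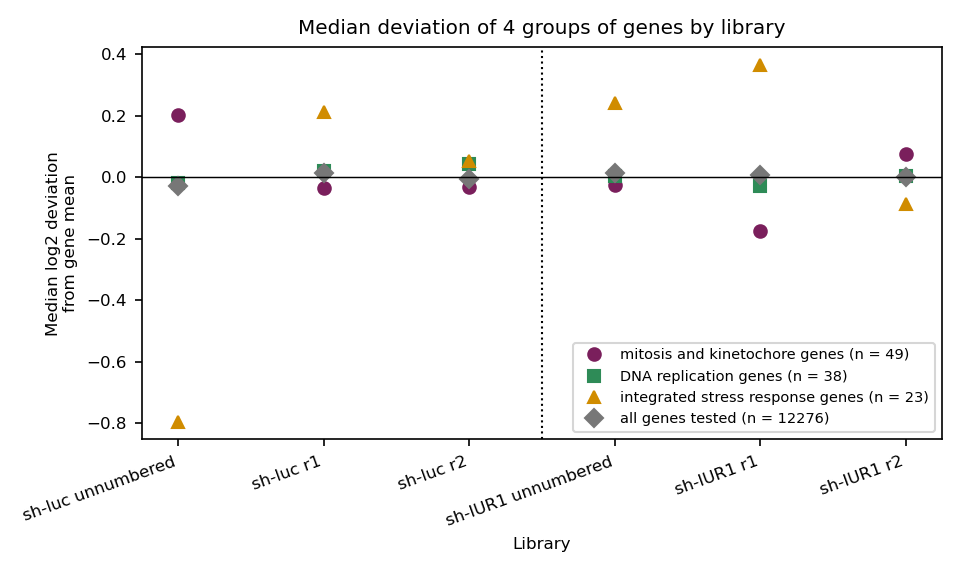
Median deviation of log2(FPKM + 1) from the mean over the 6 libraries for mitosis and kinetochore genes, DNA replication genes, integrated stress response genes and all genes tested, by library, with sh-luc left of the dotted line. Mitosis genes reach 0.20 in the unnumbered sh-luc library, where the stress genes are at -0.80, while DNA replication genes stay between -0.028 and 0.043.

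Composition and length of the transcripts moved with the values of single libraries. The 49 transcripts had a median GC content of 42.1% (range 35.1% to 59.1%), against 49.0% over all genes, and a median length of 3095 bases (715 to 12716), against 3128 bases. Across the 49 genes, which are not independent replicates and share library and depth, the Spearman correlation between GC content and the deviation in sh-luc r2 was 0.80, against 0.44 over 11923 genes. The same correlation between length and the deviation in sh-IUR1 r2 was 0.66, against 0.32. In the unnumbered sh-luc library it was -0.38 for GC content, against -0.33 over all genes, and -0.028 for length, against -0.11. In sh-IUR1 r1 it was 0.41 for GC content, against 0.39, and -0.31 for length, against -0.13. With the log2 fold change, the correlation was -0.34 for GC content and 0.36 for length in the set, against 0.12 and 0.13 over all genes. After each library was corrected for GC content and length, the set had median deviations of 0.19, -0.046 and 0.0064 in the control libraries and of -0.047, -0.14 and 0.091 in the sh-IUR1 libraries, so the high value of the unnumbered sh-luc library and the low value of sh-IUR1 r1 were still there. With that correction 40 of 49 genes were lower in sh-IUR1, where 52.1% of all genes were, and 0 were called.

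Of the other genes of the same machinery 0 were called, where 0% of all genes tested were called. Of 34 further centromere and kinetochore genes, 15 were higher and 19 lower, with a median log2 fold change of -0.025. PMF1, a subunit of the MIS12 complex, had the smallest p-value of these, with 55.40, 48.41 and 50.21 FPKM in sh-luc and 43.63, 46.36 and 47.61 FPKM in sh-IUR1. Its groups did not overlap, and its log2 fold change was -0.16 (adjusted p = 0.930 from limma). Of the 34 genes, 2 were lower without overlap, where 3.03% of all genes tested were. Of 17 genes of the anaphase-promoting complex, 6 were higher and 11 lower (median -0.018). ANAPC13, the 1 gene of these lower without overlap, had a log2 fold change of -0.14. Of 13 other condensin and cohesin subunits, 9 were higher and 4 lower (median 0.026), with STAG2 at 0.17. Of 36 other mitotic kinases, phosphatases and spindle genes, 11 were higher and 25 lower (median -0.031), with the kinesin KIF18B at -0.26. Of these 36, 18 were highest in the unnumbered sh-luc library and 21 lowest in sh-IUR1 r1.

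Regulators that act at the CHR and CCAAT elements were measured as well. Of 14 genes of DREAM, MuvB and NF-Y, 7 were higher and 7 lower, with a median log2 fold change of -0.0060 and 0 called. NFYA, the subunit of NF-Y that reads CCAAT, was at 6.38, 4.78 and 4.88 FPKM in sh-luc and at 4.44, 3.82 and 5.06 FPKM in sh-IUR1. Its log2 fold change was -0.22 with an adjusted p of 0.930 from limma. The extremes of NFYA and of another NF-Y subunit, NFYC, were opposite: NFYA was highest in the unnumbered sh-luc library and lowest in sh-IUR1 r1, while NFYC, named after its values were seen, was lowest in the former (39.12 FPKM) and highest in the latter (61.53 FPKM). Of the 38 DNA replication genes, 15 were higher and 23 lower (median -0.030). POLE2, a subunit of DNA polymerase epsilon, had the smallest p-value of these, with a log2 fold change of -0.23 and groups that did not overlap. Lower without overlap were 2 of these 38 genes and 2 of the 14 regulators, where 3.03% of all genes tested were.

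Some of these values share sequence with neighbours. Exons of CCNA2 overlap EXOSC9 by 254 bases, those of PLK1 overlap ERN2 by 58 bases and an unnamed model by 156 bases, those of KIF2C overlap an unnamed model by 137 bases, those of KIF20A overlap CDC23 by 74 bases and those of NCAPG overlap LCORL by 1634 bases, each on the opposite strand. Antisense genes cover 128 bases of KIF23, 366 bases of PRC1 and 113 bases of HMMR. On the same strand, BUB1B shares 217 bases with BUB1B-PAK6, and unnamed models share 2213 bases with NUSAP1 and 2716 bases with PRC1. Whether counting used the strand is not given in the sources used here, so reads of the opposite-strand pairs cannot be told apart. In the same-strand pairs the strand would not separate reads of the shared bases. The values of all these genes are uncertain.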

How the data were processed

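Total RNA of 3 sh-luc and 3 sh-IUR1 libraries of K562 cells was sequenced. Expression was computed by the authors with SAMtools 0.1.19 from reads aligned to the hg38 build, after removal of adaptor sequence and masking. The aligner, annotation and use of strand are not given in the sources used here. The methods name RPKM, and the deposited values are labelled FPKM. The deposited table also holds, per gene and library, a score (the z-score of FPKM), and per gene a cluster number and a fraction (cluster membership), none of which entered a test. Its listed genes have an SD of at least 0.0501 FPKM over the 6 libraries, so genes below that are outside every count. Depth per sample is unknown, and with 3 libraries per group the precision is set by the spread between them.

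Members were matched by gene identifier to RefSeq symbols (GRCh38.p14, 12363 of 12486 genes). GC content and length came from GENCODE canonical transcripts (12109 genes, 97.0%), and gene positions from RefSeq. Values were fitted as log2(FPKM + 1) with limma 3.58.1 in R 4.3.3 (eBayes with a trend, minimum mean 0.1 FPKM, group as the only term), with Benjamini-Hochberg adjustment over all genes, since FPKM are not counts. This scale understates changes of low genes. Members and gene lists were chosen with earlier results of these data known, so no test over a list was made. A blood cell marker is not reported here. Genes given with log2 fold changes were the 2 highest by FPKM in each role, the 5 smallest p-values per direction, MKI67, CDK1, CCNB1, FOXM1 and PLK1, and the smallest p-value of each further list, with PRC1 added after its values were seen because its groups did not overlap. Alternatives were leaving out each library, blocking on the replicate number, quantile normalization, scaling by median ratios, a pseudocount of 0.1, eBayes without trend, and either a minimum mean of 1 FPKM or no filter. A loess correction for GC content and length (span 0.5) was added after seeing the data. Other steps used matplotlib 3.10.9, scipy 1.17.1, pandas 2.3.3 and numpy 2.4.6 under Python 3.11.15.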

Additional observations from a re-analysis of the deposited data

How the results depend on the processing

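Under every alternative run, 0 of the 49 genes and 0 of all genes passed the adjusted threshold. The unadjusted counts moved. Members at an unadjusted p under 0.05 numbered 1 (CCNB1) as reported, 2 with median-ratio scaling, 0 after quantile normalization, 0 with eBayes without a trend and 4 with the GC and length correction. They ranged from 0 to 6 when a library was left out, with 5 without sh-luc r1 (CCNB1, PLK1, SPC25 and AURKB lower, NDC80 higher) and 6 without sh-IUR1 r2 (CCNB1, PLK1, CENPA, KIF2C, MKI67 and BIRC5 lower). These genes were named after their values were seen. Over all genes the count was 325, with 203 higher and 122 lower, and quantile normalization gave 134 higher and 178 lower. It ranged from 158 without the unnumbered sh-IUR1 library to 856 without sh-luc r1, and was 711 without sh-IUR1 r2. With the replicate block, 533 genes and 3 members (CCNB1, PLK1 and SPC25) were below 0.05. Deviations of same-numbered libraries from their group means correlated at 0.044 (unnumbered), 0.39 (r1) and -0.34 (r2). Libraries of unlike number were not correlated for reference, so whether the numbers pair the samples is unknown.

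Members lower in sh-IUR1 ranged from 23 without the unnumbered sh-luc library to 40 without sh-IUR1 r2, with medians of 0.0020 and -0.12. Median-ratio scaling and quantile normalization moved the median of all genes from 0.019 to 0.0015 and -0.0022. The median of DREAM, MuvB and NF-Y regulators was -0.025 after median-ratio scaling, -0.036 after quantile normalization and -0.024 after the GC and length correction, and -0.025 to 0.027 with a library left out. Of 448 log2 fold changes of 32 named genes under alternatives, 24 in 11 genes changed sign, and adjusted p-values ran from 0.667 to 0.9997. With median-ratio scaling TPX2 was -0.015 and CDC20 -0.020, and with the GC and length correction they were -0.010 and -0.025. With a library left out, values crossed 0 in ANLN (-0.30 to 0.013), BUB3 (-0.055 to 0.024), CDC20 (-0.039 to 0.040), CDK1 (-0.18 to 0.066), FOXM1 (-0.069 to 0.028), MAD2L1 (-0.14 to 0.059), MKI67 (-0.22 to 0.0086), PTTG1 (-0.22 to 0.010), TOP2A (-0.075 to 0.18), TPX2 (-0.022 to 0.026) and TTK (-0.047 to 0.19). The cause was not tested. The unknown depth limits what can be said of genes near 1 FPKM, such as UBE2C, and 3 libraries per group limit every p-value.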
